A study of Homo sapiens with 6 samples.

Results

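The genes described here are 10 genes of the epithelial-mesenchymal transition, listed by name with earlier results of these data known, among 20090 protein-coding genes of chromosomes 1 to 22 and X. They were followed in Hi-C maps of 4 human cancer cell lines: SW480 and SNU-C1 from colorectal cancer, HCC1954 from breast cancer and OE33 from esophageal adenocarcinoma. All lines were grown without any treatment named in the labels, and the study made the maps to see how genomic rearrangements alter chromatin folding. There were 6 maps, 3 of them of SW480 and 1 for each other line. For SW480 these were 2 replicates and an unnumbered map that pools both. No map of normal tissue and no measurement of RNA was used here, so the names epithelial and mesenchymal describe what the genes are known for and not a measured state of these lines. With 1 map for 3 of the 4 lines, differences between lines were not tested, and they are given beside the difference between the SW480 replicates and beside the same count over all protein-coding genes.

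In the epithelial-mesenchymal transition, cells joined in a sheet loosen their contacts, lose polarity and become able to move, as happens in embryos, in healing wounds and in carcinoma. *CDH1* encodes E-cadherin, the adhesion protein of epithelial junctions, and the repressors of the SNAI, ZEB and TWIST families act on it. *EPCAM* encodes an epithelial adhesion protein and *GRHL2* a transcription factor that maintains epithelial genes, while *CDH2* (N-cadherin) and *VIM* (the intermediate filament vimentin) mark mesenchymal cells.

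Hi-C counts pairs of sequence ends that lay close together in the nucleus, here in bins of 40 kb. Read pairs within chromosomes numbered from 89217535 in OE33 to 133368646 in SW480, with 65986524 and 67369012 in SW480 replicates 1 and 2. Of 75918 bins, 64931 reached 0.25 of the median coverage in every line map and were used. Of the bins overlapping a gene and 1 Mb on either side, all were usable for 8 genes, 1 of 57 was unusable at *CDH2* and 11 of 51 were unusable at *VIM*. A map is a mean over cells, so a contact made in more cells and a contact made more often per cell cannot be told apart.

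The compartment value places the 200-kb block of a gene on an axis between the gene-rich, mostly active part of a chromosome (above 0, A) and the gene-poor part (below 0, B). It is the first eigenvector of the correlation matrix of observed over expected contacts (O/E) of the chromosome, scaled to a root mean square of 1. On the 7 chromosomes that hold the genes its correlation with gene density was between 0.374 and 0.679 in the 4 lines. Over 18082 genes with a value in all lines, the SW480 replicates differed by 0.07 in the median and by 0.22 at the 95th percentile.

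The 3 epithelial genes and *SNAI1* lay in the A compartment in all 4 lines. *CDH1* (chr16:68771195-68869440) had a compartment value of 1.14 in SW480 (1.21 and 1.02 in replicates 1 and 2), 0.92 in SNU-C1, 1.12 in OE33 and 1.16 in HCC1954. *EPCAM* (chr2:47572297-47614740) had 1.46 in SW480 (1.46 and 1.49 in the replicates), 1.54 in SNU-C1, 1.29 in OE33 and 1.52 in HCC1954. Both genes were far above 0 in every map, and the mean of *EPCAM* over the lines was at or above that of 98.7% of genes. *GRHL2* (chr8:102504667-102681954) had 1.33 in SW480 (1.28 and 1.33), 1.55 in SNU-C1, 1.23 in OE33 and 1.36 in HCC1954. *SNAI1* (chr20:48599517-48605423), which encodes the repressor Snail, had 1.28 in SW480 (1.30 and 1.32), 1.44 in SNU-C1, 1.21 in OE33 and 1.27 in HCC1954. Snail is known as an inducer of the transition, and its gene lay on the same side as *CDH1*, on which it acts. In all 4 genes every 200-kb block within 1 Mb was above 0 in every map, except 1 of 12 blocks at *EPCAM* in HCC1954 (-0.02) and 1 of 12 in OE33 (-0.04). Values above 0 in all 4 lines were found for 4 of the 10 genes and for 65.4% of all genes.

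**Figure D1:**
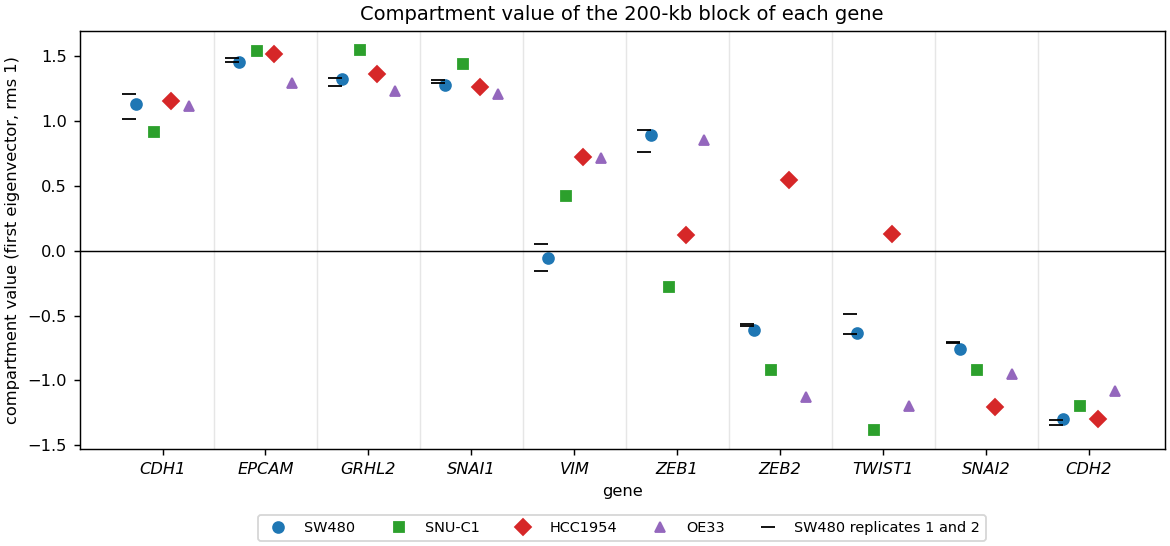
Compartment value (vertical axis, scaled to a root mean square of 1) of the 200-kb block holding the start of each gene. Coloured symbols are the 4 line maps and black ticks the SW480 replicates. *CDH1*, *EPCAM*, *GRHL2* and *SNAI1* lie above 0 in all lines and *SNAI2* and *CDH2* below 0, while *ZEB2* and *TWIST1* are above 0 in HCC1954 alone.

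The 200-kb blocks that hold the starts of *CDH2* and *SNAI2* lay in the B compartment in all 4 lines. *CDH2* (chr18:25512843-25757910) had a value of -1.30 in SW480 (-1.34 and -1.31 in the replicates), -1.20 in SNU-C1, -1.08 in OE33 and -1.30 in HCC1954. All 12 blocks of its window were below 0 in each map, and its mean was at or above that of 3.29% of genes. *SNAI2* (chr8:49830157-49834299), which encodes the Snail relative Slug, had -0.76 in SW480 (-0.70 and -0.71), -0.92 in SNU-C1, -0.95 in OE33 and -1.21 in HCC1954. Its window was mixed, with 4 of 11 blocks above 0 in SW480, 1 in SNU-C1, 4 in OE33 and 5 in HCC1954. The *SNAI2* block lay at an edge in SW480, OE33 and HCC1954. There the stretch below 0 began with it (chr8:49800001), and the next block downstream of the gene was above 0. In SNU-C1 the stretch began at chr8:49000001. Most of the block lies upstream of the start, so its value describes that side more than the start itself. Values below 0 in all lines were found for 2 of the 10 genes and for 11.5% of all genes.

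The compartment sign differed between lines for the other 4 genes, *ZEB1*, *ZEB2*, *TWIST1* and *VIM*, against 23.1% of all genes. Of these, *ZEB2* and *TWIST1* were above 0 in HCC1954 and below 0 in the other 3 lines, a pattern noticed in the values that 2.57% of all genes shared. The range over lines was above the 95th percentile of the replicate difference for 9 of the 10 genes, all but *CDH2*, and for 82.3% of all genes. The range is taken over 4 maps and the replicate difference over 2, so the range passes this bound more easily. The median range was 0.38 for the 10 genes and 0.48 for all genes.

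*ZEB2* (chr2:145121931-145278624), which encodes a zinc finger repressor of E-cadherin, had -0.61 in SW480 (-0.58 and -0.56 in replicates 1 and 2), -0.92 in SNU-C1, -1.13 in OE33 and 0.55 in HCC1954. Its range of 1.67 was the widest of the 10 genes, at or above that of 94.1% of genes, and the SW480 replicates differed by 0.02. The difference was not limited to the gene's own block. In HCC1954 all 12 blocks of the window were above 0, from 0.40 to 0.97, and a stretch of 9.0 Mb (chr2:143400001-152400000) held 44 blocks with a value, all above 0, and 1 block without a value. Over that stretch the median was 0.76 in HCC1954, -0.59 in SW480, -0.65 in SNU-C1 and -1.04 in OE33. The stretch was delimited by the sign in HCC1954, so the value above 0 there follows from that choice. Over the stretches around the gene delimited by the sign in SW480, SNU-C1 and OE33, the HCC1954 median was -0.66, 0.16 and 0.71. The first eigenvector of chromosome 2 held a share of 0.0904 of the variance in HCC1954 and between 0.146 and 0.219 in the other lines, and its part in the result was not tested. As a contact preference (log2 of mean O/E with A blocks over that with B blocks), *ZEB2* was at 0.03 in HCC1954 and at -0.31 in SW480, -0.58 in SNU-C1 and -0.95 in OE33. The value in HCC1954 was close to 0, and no replicate difference is given on this scale, so its sign is not set.

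*TWIST1* (chr7:19060614-19157259), the gene of a helix-loop-helix factor of the transition, had -0.63 in SW480 (-0.49 and -0.64), -1.39 in SNU-C1, -1.20 in OE33 and 0.13 in HCC1954. HCC1954 was again the highest line, and 8 of 11 blocks in its window were above 0, against none in SW480 and SNU-C1 and 4 in OE33. The gene's own block stood alone in HCC1954, a stretch of 0.2 Mb above 0 with blocks below 0 on both sides. Its value in HCC1954 was also smaller than the 95th percentile of the replicate difference. It was below 0 with blocks of 400 kb (-0.14), as a contact preference (-0.38) and with each chromosome arm by itself (-0.93).

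*ZEB1* (chr10:31607424-31818742), the relative of *ZEB2*, had 0.89 in SW480 (0.93 and 0.76), -0.28 in SNU-C1, 0.86 in OE33 and 0.12 in HCC1954. SW480 and OE33 were high and SNU-C1 and HCC1954 lay near 0. The dip below 0 in SNU-C1 at the gene spanned 0.4 Mb (chr10:31400001-31800000), inside a stretch that was above 0 for 8.8 Mb in SW480 and in OE33 (8.8 and 5.0 Mb in SW480 replicates 1 and 2). Lower values in SNU-C1 were not limited to the gene. Over the 8.8 Mb the median was 0.42 in SNU-C1, 0.94 in SW480, 1.06 in OE33 and 1.06 in HCC1954. The stretch was delimited by the sign in SW480 and OE33, so the values above 0 in these lines follow from that choice. Further blocks of the stretch were below 0 in SNU-C1, the lowest at -0.43, 2.6 Mb downstream of the gene's block. *ZEB1* stayed below 0 in SNU-C1 in all 3 other ways of computing the value, from -0.85 to -0.14. In HCC1954 it was below 0 in each of them, at -0.01 with 400-kb blocks, -0.27 as a contact preference and -0.61 with each arm by itself.

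*VIM* (chr10:17270240-17279592) had -0.06 in SW480, 0.42 in SNU-C1, 0.72 in OE33 and 0.72 in HCC1954. The SW480 replicates fell on opposite sides of 0, at 0.05 and -0.16, so the sign in SW480 is not set by these data, and without replicate 2 the gene was above 0 in all 4 lines. SW480 was the lowest line in each case. The block lay at an edge: 1 of 9 blocks with a value in its window was above 0 in SW480, 4 in SNU-C1, 6 in OE33 and 5 in HCC1954.

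**Figure D2:**
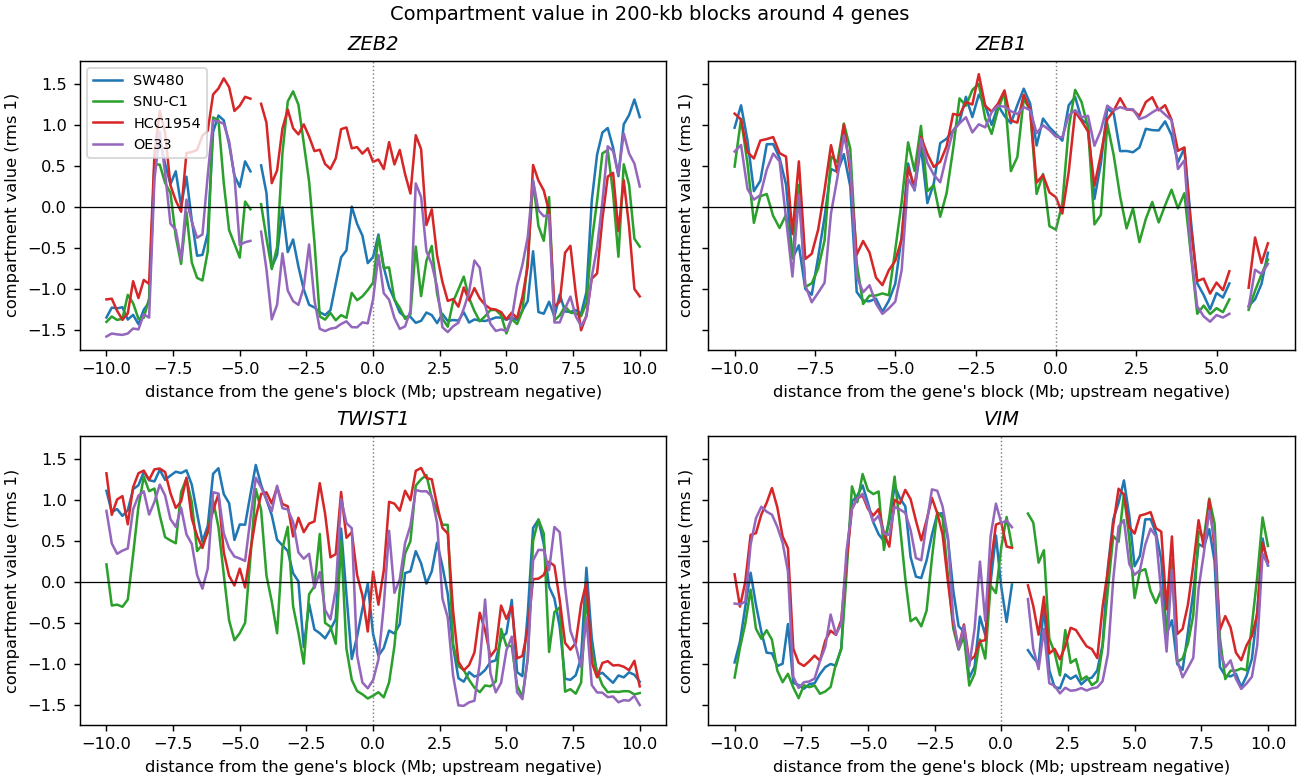
Compartment value (vertical axis, root mean square 1) of 200-kb blocks against distance from the block of the gene (horizontal axis, Mb, upstream negative) for *ZEB2*, *ZEB1*, *TWIST1* and *VIM*, with a line for each cell line map; gaps are blocks with too few usable bins. HCC1954 stays above 0 around *ZEB2* where the other lines are mostly below it, and SNU-C1 and HCC1954 dip at *ZEB1*. SNU-C1 also dips below 0 further downstream of *ZEB1*.

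Promoter sequences are shown for the genes whose compartment sign differed and that RefSeq's promoter table (GRCh38.p14) holds, and for *CDH2*, the gene with the lowest mean over the lines, to show the sequence at the starts that were measured. The table held 4 of the 10 genes. Each sequence runs 5′ to 3′ on the gene's strand, from 250 bases before to 50 bases after a start site, and its position on GRCh37 comes from its only exact match on the gene's chromosome. Capitals mark GATC, the site cut by MboI in these experiments, and CAGGTG or CACCTG, the E-box form bound by ZEB and Snail proteins, on either strand.
ZEB1: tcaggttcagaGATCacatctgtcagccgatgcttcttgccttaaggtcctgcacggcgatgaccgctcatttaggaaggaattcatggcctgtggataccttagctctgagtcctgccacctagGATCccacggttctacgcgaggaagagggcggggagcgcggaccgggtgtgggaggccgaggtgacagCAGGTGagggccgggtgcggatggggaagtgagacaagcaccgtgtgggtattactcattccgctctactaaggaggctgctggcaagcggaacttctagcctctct
ZEB2: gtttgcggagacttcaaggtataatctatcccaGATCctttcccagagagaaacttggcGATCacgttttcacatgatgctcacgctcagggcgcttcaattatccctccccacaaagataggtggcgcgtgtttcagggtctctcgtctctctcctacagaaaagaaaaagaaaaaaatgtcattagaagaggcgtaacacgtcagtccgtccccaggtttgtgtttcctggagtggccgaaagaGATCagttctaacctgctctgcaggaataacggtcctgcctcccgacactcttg
VIM: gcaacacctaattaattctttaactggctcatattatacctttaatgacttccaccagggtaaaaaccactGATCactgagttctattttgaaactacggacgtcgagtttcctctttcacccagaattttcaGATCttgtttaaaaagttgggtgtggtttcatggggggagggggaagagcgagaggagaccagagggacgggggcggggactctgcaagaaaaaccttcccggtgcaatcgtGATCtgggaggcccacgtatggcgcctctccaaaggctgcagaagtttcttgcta
CDH2: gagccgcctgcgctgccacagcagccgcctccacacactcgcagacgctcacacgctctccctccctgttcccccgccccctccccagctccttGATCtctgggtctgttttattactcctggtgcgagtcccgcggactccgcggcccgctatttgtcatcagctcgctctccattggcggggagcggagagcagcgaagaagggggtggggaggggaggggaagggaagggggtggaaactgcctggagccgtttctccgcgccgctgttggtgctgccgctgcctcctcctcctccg

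The *ZEB1* sequence (chr10:31607096-31607395, plus strand), of 7 entries the nearest to the annotated start (78 bases from it), held 1 E-box and 2 GATC sites. The *ZEB2* sequence (chr2:145277637-145277936, minus strand), whose start lies 938 bases from the annotated one, held no E-box of these letters and 3 GATC sites, and so did that of *VIM* (chr10:17269990-17270289, plus strand). The *CDH2* sequence (chr18:25757045-25757344, minus strand), 816 bases from the annotated start, held no E-box of these letters, 1 GATC site and a GC content of 67%, the highest of the 4. Of 35116 promoters of the same length in the table, 20.6% held the E-box and 41.7% held GATC. The motifs can share a base, which they did in none of the sequences shown, and a match is a description of the letters and not of binding.

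The compartments of further genes of the transition were read from 3 lists. Genes that share a 200-kb block share its value and were counted singly, in the lists and over all genes, so the counts are not of independent places. The epithelial median in SW480 equals the value of the *CDH1* block, so that list may not be separate from the genes above. Of 31 epithelial genes with values, 24 (77.4%) were above 0 in all lines, none below 0 in all, and 7 (22.6%) differed in sign. Of all genes, 65.4% were above 0 in all lines, 11.5% below 0 in all, and 23.1% differed in sign, so the share that differed was near that of all genes. The tight junction genes *OCLN* and *MARVELD2*, which share a block, were at -0.26 in SNU-C1 and between 1.06 and 1.63 in the other lines. *DSG2*, a desmosomal cadherin, was at -0.07 in SW480 and from 0.16 to 1.30 in the others, and *EPS8L1* was above 0 in SW480 alone (0.32). *OVOL2*, an epithelial repressor of *ZEB1*, was below 0 in OE33 alone (-0.17), and *TJP1*, a junction scaffold, in HCC1954 (-0.23) and OE33 (-0.20). The values of *DSG2* and *OVOL2* in SW480 and of *DSG2*, *OVOL2* and *TJP1* in OE33 lay within 0.22 of 0, the 95th percentile of the replicate difference. Such signs are not set by these data, and the counts by sign, in the lists and over all genes, include them. The list median was between 1.09 and 1.14 in the 4 lines, and that of all genes between 0.84 and 1.01.

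Of 32 mesenchymal genes, 12 (37.5%) were above 0 in all lines, against 65.4% of all genes. Below 0 in all lines were 8 (25%), against 11.5%, and 12 (37.5%) differed in sign, against 23.1%. Widest was the range of *MMP2*, a matrix protease, which was at 0.98 in HCC1954 and at -0.47 in SW480, -0.84 in SNU-C1 and -1.14 in OE33. *TCF4*, a helix-loop-helix factor, was above 0 in SNU-C1 alone (0.49, with the other lines from -1.46 to -0.89). The fibrillar collagen gene *COL5A2* was above 0 in HCC1954 (0.61) and OE33 (0.23), *COL1A2* was below 0 in SNU-C1 alone (-1.12), and *FAP*, a protease of activated fibroblasts, was above 0 in HCC1954 (0.72) and OE33 (0.08). *WNT5A* was below 0 in SNU-C1 (-0.71) and OE33 (-1.02), the collagen cross-linking *LOX* in OE33 alone (-0.29), and the proteoglycan *VCAN* in SW480 alone (-0.51). Among these, values within 0.22 of 0 were those of *COL1A2*, *FAP* and *VCAN* in OE33 and of *VCAN* in HCC1954. The list median was 0.16 in SW480, 0.34 in SNU-C1, 0.32 in OE33 and 0.67 in HCC1954, below that of all genes in every line.

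Of 19 genes of signalling that drives or limits the transition, 11 (57.9%) were above 0 in all lines, none below 0 in all, and 8 (42.1%) differed in sign, against 65.4%, 11.5% and 23.1% of all genes. *LATS2*, a Hippo kinase, was at -0.87 in SNU-C1 and between 1.14 and 1.27 elsewhere. The ligand *TGFB1* was near 0 in HCC1954 (-0.08) and between 1.07 and 1.16 in the other lines, while *TGFB2* was between -1.27 and 0.02 and the receptor *TGFBR1* was below 0 in SNU-C1 alone (-0.02). *JAG1*, a Notch ligand, was above 0 in SNU-C1 (0.42) and OE33 (0.23), *ID1*, an inhibitor of helix-loop-helix factors, in SW480 (0.10) and HCC1954 (0.33), *SMAD4* was below 0 in SW480 alone (-0.09) and *BMP7* in HCC1954 alone (-0.10). The values of *TGFB1* and *BMP7* in HCC1954, *TGFBR1* in SNU-C1, and *SMAD4* and *ID1* in SW480 lay within 0.22 of 0. So did those of *TGFB2* in SW480, OE33 and HCC1954. These signs are not set by these data, and the 8 genes counted as differing in sign include these genes. *TGFB1*, *TGFB2*, *BMP7*, *TGFBR1* and *SMAD4* differed in sign through such values alone, so the share of 42.1% rests largely on them. *PKP3* and *NOTCH1* had no value.

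Insulation is the log2 of contacts across a bin, between the 1 Mb on its left and on its right, over the chromosome mean, and its minima are the places where contacts across are fewest, as at the edges of topologically associating domains (TADs). A minimum was called where the slope over 200 kb on either side turned from falling to rising by a strength of at least 0.1, so it can lie off the lowest bin of an uneven valley. A minimum lay within 80 kb of the start in all 4 lines for 2 of the 10 genes, *EPCAM* and *SNAI1*, against 19.0% of 16937 genes. At *EPCAM* it lay 40 kb downstream of the start in every map, with a strength of 0.91 in SW480 (0.93 and 0.89 in the replicates), 0.86 in SNU-C1, 1.03 in OE33 and 1.0 in HCC1954. The gene therefore sat at the end of an interval of 440 to 480 kb. Among the genes of that interval were *MCFD2*, *STPG4*, ENSG00000273269 and *CALM2* in all lines and *TTC7A* in SW480 and SNU-C1. At *SNAI1* it lay 80 kb downstream in SW480, SNU-C1 and HCC1954 and 40 kb downstream in OE33, with strengths of 0.85, 0.97, 0.75 and 1.28. The called minimum lay between separate low points of a broad valley, and the lowest bin was 40 kb upstream in SW480, HCC1954 and OE33 and 120 kb downstream in SNU-C1. On the upstream side the next minimum was 800 to 840 kb away, and the genes of the interval included *STAU1*, *DDX27*, *ZNFX1*, *PTGIS*, *B4GALT5*, *SLC9A8*, *SPATA2* and *RNF114* in all lines.

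*SNAI2* lay at the very edge of its interval, with a minimum called 120 kb upstream of its start in every map and a strength of 1.19 in SW480 (1.20 and 1.18), 0.67 in SNU-C1, 1.43 in OE33 and 1.39 in HCC1954. The lowest bin of that valley was nearer, 40 kb upstream in SW480, SNU-C1 and HCC1954 and 80 kb upstream in OE33. SNU-C1 had the shallowest valley, with an insulation of -0.30 at its lowest bin against -0.82, -0.78 and -0.83 in SW480, HCC1954 and OE33. Downstream the interval reached 880 to 1000 kb and held *UBE2V2* and *CLXN* in all lines, and *MCM4* and *PRKDC* as well in HCC1954 and OE33.

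At *ZEB1* the lines shared the minimum 680 to 720 kb upstream but not the next downstream. SNU-C1 and HCC1954 had a minimum 560 kb downstream (strengths 0.55 and 0.57), whereas in SW480, both its replicates and OE33 the next was called 920 or 960 kb downstream. The insulation of SW480 and OE33 also dipped at 480 kb downstream, to -0.18 and -0.22, against -0.64 in SNU-C1 and -0.41 in HCC1954, but no minimum was called there. The interval held *ZNF438* and *ZEB1* in all lines, *ARHGAP12* and *KIF5B* in SW480 and OE33 alone, and *LYZL2* in SNU-C1 and OE33. SNU-C1 and HCC1954 were also the lines with *ZEB1* near or below 0 in compartment value.

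*GRHL2* had a minimum 200 kb upstream in every map (strengths from 0.45 to 0.72) and shared its interval with *NCALD* and *RRM2B* in all lines. *VIM* had a strong minimum 440 kb upstream in every map (1.07 to 1.5). Downstream, the next minima were called among the 11 unusable bins, 520 to 920 kb from the start, so that edge of the interval is not set by these data. From the upstream minimum the interval held *RSU1*, *CUBN*, *TRDMT1*, *ST8SIA6*, *HACD1* and *STAM* in all lines. *CDH1* lay between minima 400 to 480 kb upstream and 560 kb downstream in the line maps, together with its neighbour *CDH3* (P-cadherin), *SMPD3* and *ZFP90*. OE33 had a further minimum 40 kb downstream of the *CDH1* start, with a strength of 0.22. In SW480, SNU-C1 and HCC1954 the interval reached on to *TANGO6*, *HAS3*, *CHTF8*, *DERPC*, *UTP4*, *SNTB2*, ENSG00000260914 and *VPS4A*, and in SNU-C1 and OE33 it took in *PRMT7* and *SLC7A6OS*, with *SLC7A6* in OE33 alone.

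*CDH2* was the only protein-coding gene of its interval in all lines, with a weak minimum at the start bin in HCC1954 alone (strength 0.13) and another 160 kb upstream in SNU-C1 alone (0.17). *TWIST1* was between minima 560 to 600 kb upstream and 440 to 720 kb downstream, with *FERD3L* in all lines and *POLR1F* in SW480. *ZEB2* had no minimum within 1 Mb in SW480 and SNU-C1 and a weak one 400 kb upstream in HCC1954 (0.10) and OE33 (0.42). Its interval, the longest of the 10, spanned 1760 to 3640 kb and held *GTDC1* in all lines and *ARHGAP15* in all but OE33.

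**Figure D3:**
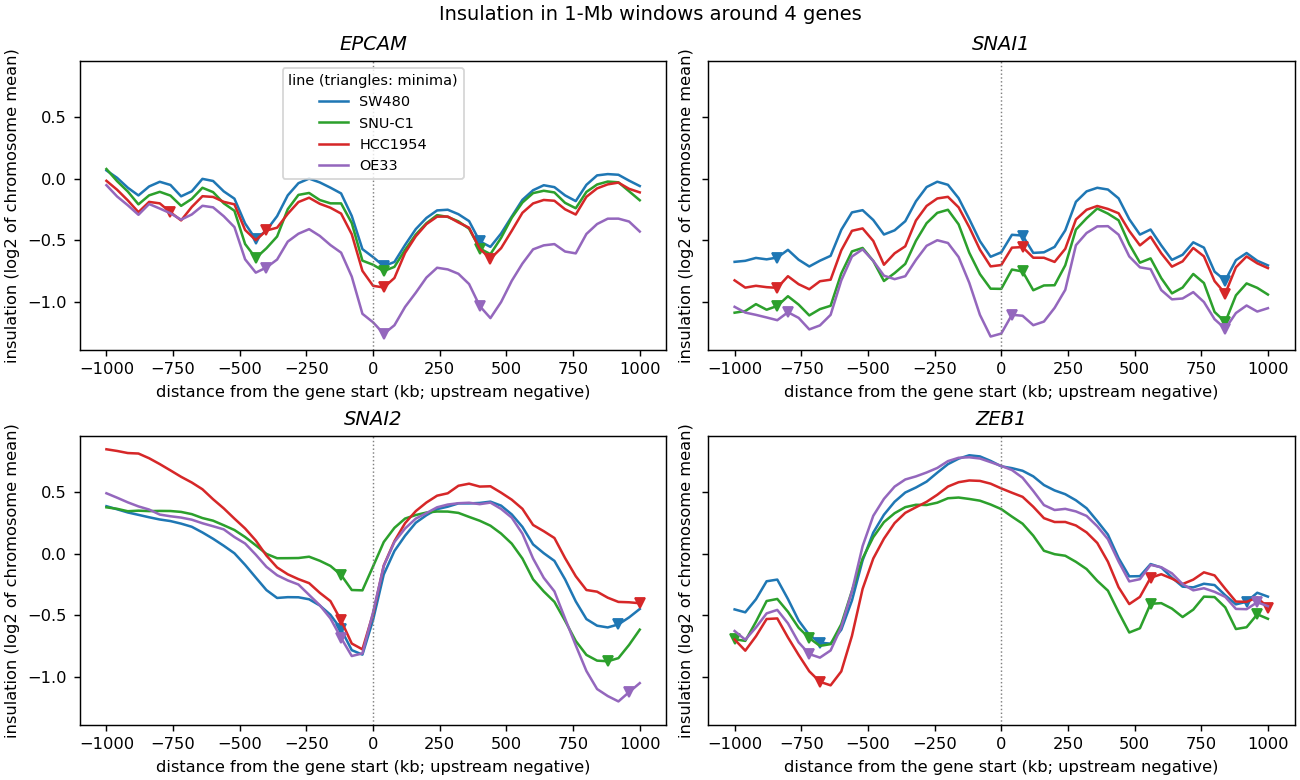
Insulation (vertical axis, log2 of the chromosome mean) against distance from the start (horizontal axis, kb, upstream negative) for *EPCAM*, *SNAI1*, *SNAI2* and *ZEB1*. Coloured lines are the 4 line maps and triangles the called minima; all lines share the valley at *EPCAM* and the valley just upstream of *SNAI2*, and a minimum 560 kb downstream of *ZEB1* was called in SNU-C1 and HCC1954 alone.

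The flank O/E is the sum of contacts of the start bin with bins 80 kb to 1 Mb away on both sides over the sum expected at these distances. The 95% intervals in parentheses are exact Poisson ones and reflect counting error alone. *SNAI1* in SW480 had 1.46 (1.41 to 1.5), followed by HCC1954 with 0.97 (0.93 to 1.02), SNU-C1 with 0.88 (0.85 to 0.90) and OE33 with 0.61 (0.59 to 0.63), from 2106 to 4429 read pairs. *EPCAM* had 0.96 (0.92 to 1.0), 0.68 (0.65 to 0.72), 0.92 (0.87 to 0.96) and 0.61 (0.58 to 0.64) in SW480, SNU-C1, HCC1954 and OE33, and *CDH2* 0.78 (0.72 to 0.84), 1.15 (1.08 to 1.24), 1.16 (1.06 to 1.25) and 1.21 (1.10 to 1.32). OE33 was the lowest line at *SNAI1* and *EPCAM*, and SW480 the lowest at *CDH2*. These 3 of the 10 genes had a highest line at least 1.5 times the lowest (2.38, 1.57 and 1.55 times), against 26.7% of all genes. The SW480 replicates differed by at most 1.09 times at any of the 10 genes.

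The maps of SW480 hold almost no contacts between chromosomes and appear to have been corrected chromosome by chromosome, the others over the genome. The typical contact frequency of the 7 chromosomes against all chromosomes ranged from 0.831 to 1.35 in SW480 and from 0.894 to 1.16 in the other lines. Against the expected value of its own chromosome, *SNAI1* had 1.08 in SW480, 0.95 in SNU-C1, 0.68 in OE33 and 0.94 in HCC1954, a fold of 1.58. *SNAI1* was then the only gene past 1.5-fold, against 15.3% of all genes. *EPCAM* (0.89, 0.68, 0.62 and 0.90 in the same order) had a fold of 1.47, and *CDH2* (0.93, 1.06, 1.04 and 1.07) a fold of 1.16. In read pairs without the correction *SNAI1* was lowest in HCC1954 (1.55) and not in OE33 (2.38).

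The difference between the upstream and downstream flank does not depend on that scale. *SNAI2* had an upstream O/E of 0.23 in SW480, 0.36 in SNU-C1, 0.27 in OE33 and 0.30 in HCC1954, and a downstream O/E of 2.18, 1.86, 2.60 and 2.52 in the same order. The log2 of upstream over downstream was -3.26 in SW480 (-3.34 and -3.19 in the replicates), -2.37 in SNU-C1, -3.27 in OE33 and -3.07 in HCC1954. The *SNAI2* start thus contacted the side of *UBE2V2* and *CLXN* far more than the side beyond the insulation valley, in every map. The lean was least in SNU-C1, where the valley was shallowest. Insulation and the side ratio both draw on contacts across that valley, so they are not independent observations. A flank at least 2 times higher on the same side in all 4 lines was found for *SNAI2* alone of the 10 genes, and for 7.64% of all genes.

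*VIM* leaned the other way, with log2 ratios of 1.51 in SW480 (1.46 and 1.56), 0.89 in SNU-C1, 1.20 in OE33 and 1.14 in HCC1954, though its downstream flank lacks the bins left out. With flanks of 80 to 480 kb it passed the same bound in all lines. *SNAI1* leaned downstream in every line (-0.91 to -0.69), and *ZEB1* (0.45 to 0.66) and *EPCAM* (0.31 to 0.67) upstream in every line. *CDH1*, *GRHL2*, *TWIST1* and *ZEB2* had values on both sides of 0 among the lines, and *CDH2* was between -0.83 and -0.16.

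**Figure D4:**
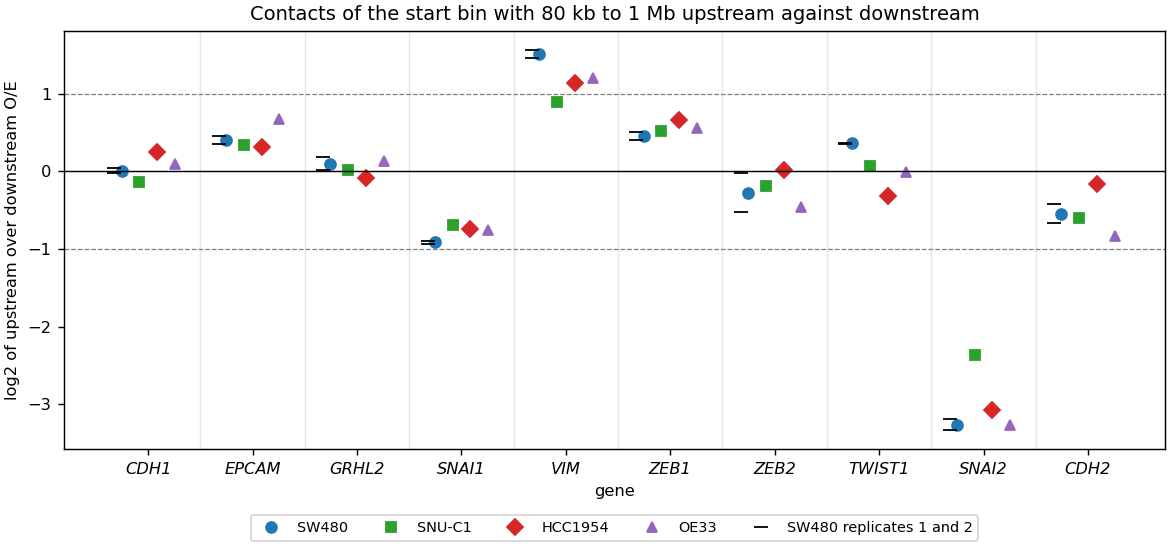
Log2 of upstream over downstream O/E of the start bin with flanks of 80 kb to 1 Mb (vertical axis) for each gene. Coloured symbols are the line maps, black ticks the SW480 replicates, and dashed lines a 2-fold difference; *SNAI2* lies between -3.27 and -2.37 in the 4 lines.

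No contact within the windows passed the limit set here for a line-specific contact. Between 637 bin pairs at *VIM* and 1330 at *CDH2*, all at least 200 kb apart and each summed with its neighbouring bins, were searched for an O/E of at least 4 that was also at least 4 times that of the other lines, after adding 0.5 to each. The count was 0 in all 10 windows, and 0.325% of 19693 gene windows held such a pair. The ratio was highest at *SNAI2* in SNU-C1 (2.11), for a contact across the valley between 600 kb upstream and 520 kb downstream with an O/E of 1.28 (1.02 to 1.60, 79 read pairs) and at most 0.34 in the other lines. At *TWIST1* the highest ratio was 1.89 in SW480, between 520 kb upstream and 760 kb downstream, near the minima on both sides. The O/E there was 4.42 (4.02 to 4.86), with at most 2.11 in the other lines, against the expected value of all chromosomes. On that scale the typical contact frequency of chromosome 7 was 1.26 in SW480 and 0.912 to 0.997 in the other lines, and its part in this contact was not tested. At *CDH2* the highest ratio was 1.78 in OE33, between 560 kb upstream and 600 kb downstream, at both minima of that line. The O/E there was 2.96 (2.06 to 4.12) from 35 read pairs. These bin pairs at *SNAI2*, *TWIST1* and *CDH2* were picked for the highest ratio in their windows. Their intervals do not allow for that choice and give no support for a difference between lines. Over all bin pairs of a window, the correlation of log2 O/E (after adding 0.1) between lines had a median from 0.20 at *CDH2* to 0.691 at *SNAI1*, and was 0.140 to 0.671 between the shallower SW480 replicates. These points share bins and depth, and the correlations are given as a description.

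Coverage counts the read pairs that join a bin to its own chromosome, relative to the autosomal median of the map, as the median over the gene and 1 Mb on either side. It rises with the number of copies of a region and with its density of cut sites, and the copy number of these lines was not measured here. The most uneven gene was *GRHL2*, with 1.15 in SW480 (1.16 and 1.15 in the replicates), 1.99 in SNU-C1, 1.13 in OE33 and 3.48 in HCC1954. Against the median of the other 3 lines this was 3.02 times in HCC1954, 1.73 times in SNU-C1, 0.58 in SW480 and 0.57 in OE33. In HCC1954 the coverage was 3.77 over the upstream 1 Mb, 6.33 in the start bin and 2.87 over the downstream 1 Mb, so it was not level across the window. The *GRHL2* compartment value in HCC1954 (1.36) lay within those of the other lines, and its flank O/E (0.85) was the lowest of the 4.

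*SNAI1* was covered 1.59 times in SW480, 2.17 in SNU-C1, 2.10 in OE33 and 1.32 in HCC1954, and HCC1954 had 0.63 of the median of the others. *ZEB1* had 1.15, 1.02, 1.15 and 0.73 in the same order, again lowest in HCC1954 with 0.64 of the others. These 3 genes passed 1.5-fold in a line, against 49.0% of all genes. *CDH1* came close in HCC1954 (1.29, 1.48 times the others) and passed when only the bins of the gene were counted (1.53 against 0.93 to 1.0), and with these bins *ZEB1* did not pass. At *ZEB2*, where HCC1954 stood apart in compartment, coverage was 1.42 in HCC1954 and 1.11 to 1.15 in the other lines. *VIM* (0.70) and *SNAI2* (0.70) were lowest in HCC1954 too, *TWIST1* was covered 1.33 to 1.73 times and *EPCAM* 1.14 to 1.65 times in all lines. *CDH2* had 0.52 in SW480, 0.64 in SNU-C1, 0.49 in OE33 and 0.65 in HCC1954, the lowest of the 10 genes in each line. Its window has a median GC content of 36.9% and 91 GATC sites per bin, against 39.8% and 98 over usable autosomal bins, and *CDH1*, the other cadherin, has 46.1% and 130. The windows of *TWIST1* (36.0% and 90) and *ZEB2* (37.2% and 89) were close to that of *CDH2* in both, with coverage above 1 in every line. The part of base content in coverage was not tested.

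**Figure D5:**
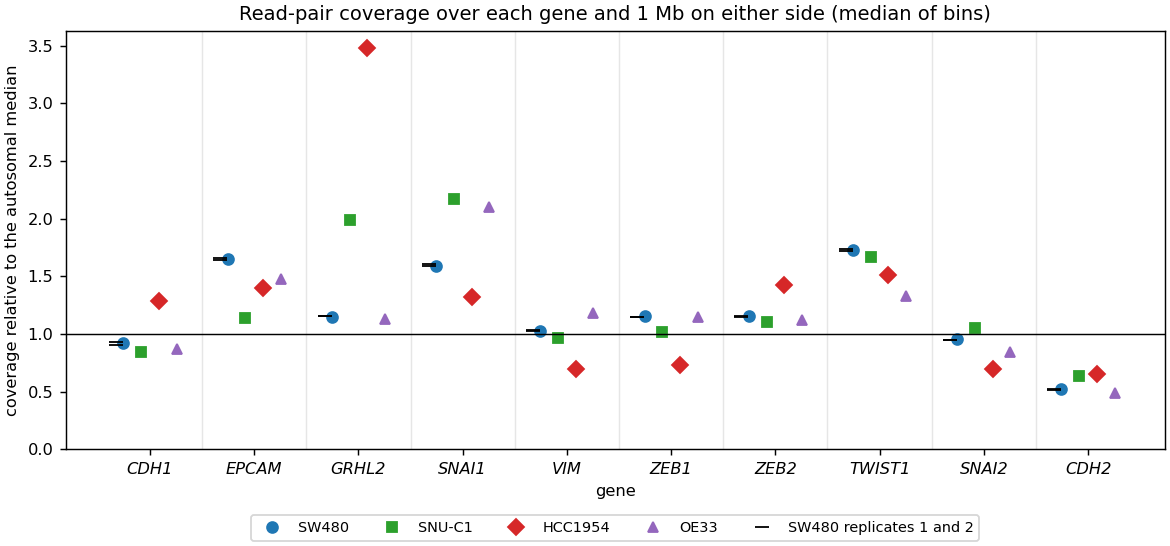
Coverage in read pairs relative to the autosomal median of each map (vertical axis, from 0) over each gene and 1 Mb on either side. Coloured symbols are the 4 line maps and black ticks the SW480 replicates; *GRHL2* reaches 3.48 in HCC1954, and *CDH2* lies between 0.49 and 0.65 in the 4 lines.

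Of the 10 genes, 3 pairs share a chromosome. The windows 1 Mb on either side of the starts of *VIM* and *ZEB1*, 14.3 Mb apart, had an O/E with each other of 1.18 (1.09 to 1.28) in HCC1954, 0.90 (0.84 to 0.96) in SNU-C1, 0.81 (0.76 to 0.86) in SW480 and 0.78 (0.73 to 0.84) in OE33. HCC1954 was the highest line and the only one above 1, and the SW480 replicates had 0.81 and 0.80. *EPCAM* and *ZEB2*, 97.7 Mb apart on both arms of chromosome 2, had 0.83 (0.72 to 0.96), 0.88 (0.69 to 1.10), 1.08 (0.89 to 1.30) and 0.55 (0.45 to 0.67) in SW480, SNU-C1, HCC1954 and OE33, from 75 to 185 read pairs. HCC1954 was again the highest, with an interval that overlapped those of SW480 and SNU-C1, and the replicates of SW480 had 0.93 and 0.74. Against the expected value of the own chromosome, the same lines had 0.85, 0.93, 1.31 and 0.59 for *EPCAM* and *ZEB2*, and 0.91, 0.91, 1.12 and 0.87 for *VIM* and *ZEB1*, so HCC1954 was the highest on that scale too. *SNAI2* and *GRHL2*, 52.7 Mb apart on chromosome 8, had 0.79 in SW480, 0.60 in SNU-C1, 1.02 in OE33 and 0.67 in HCC1954, and against chromosome 8 itself the values were 0.82, 0.68, 1.05 and 0.87 in that order.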

How the data were processed

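In situ Hi-C libraries cut with MboI were sequenced by the authors, aligned with BWA-MEM to hg19 and cleared of duplicates with Picard (versions: not given in the sources used here). For each pair of 40-kb bins the deposited signal is the frequency left after the authors' iterative correction. The SW480 maps hold almost no contacts between chromosomes and appear, from this, to have been corrected by chromosome. Read pairs were recovered from the deposited signal as whole multiples of the bin factors, and 99.857% to 99.982% of values up to 20 came out within 0.02 of a whole number. Sample labels gave the groups. The study calls its replicates biological and says that experiments were run in duplicate, but the labels do not tell if SNU-C1, HCC1954 and OE33 maps combine duplicates.

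Bins below 0.25 of the median coverage in any line were dropped. Expected values were means by distance over all chromosomes. Gene positions were those of GENCODE lifted to GRCh37, and the chromosome ends of the maps matched that build for all 23 chromosomes. Differences between lines were not tested, since 3 lines have 1 map each, and values are descriptions with exact 95% Poisson intervals for counting error. Molecules were not tagged, and intervals do not cover differences between libraries. All 10 genes are named. Of the further lists, genes whose sign differed are named, at most 8 for each list in order of range, as are the genes between the nearest minima, apart from a few genes that are not reported here. The members and lists were chosen with earlier results of these data known. Numba 0.67.0, SciPy 1.17.1, NumPy 2.4.6, pandas 2.3.3 and Matplotlib 3.10.9 under Python 3.11.15 were used, and the scripts were tested on simulated maps. Alternatives were other block sizes, coverage limits, insulation windows, flanks, expected values and either SW480 replicate left out.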

Additional observations from a re-analysis of the deposited data

How the results depend on the processing

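With the contact preference in place of the eigenvector, 2 genes (*ZEB1*, *ZEB2*) in place of 4 differed in compartment sign. *ZEB2* was the only 1 of *ZEB2* and *TWIST1* still above 0 in HCC1954 alone under 400-kb blocks, the contact preference and single arms, so this count fell from 2 to 1 under each. With the contact preference the *ZEB2* value in HCC1954 was close to 0, so its place in both counts under that setting rests on a sign that is not set. A limit of 40 kb left 1 gene (*EPCAM*) near an insulation minimum in all lines, and placing minima at the lowest bin, an alternative chosen after seeing the data, kept *EPCAM* and exchanged *SNAI1* for *SNAI2*. The count past 1.5-fold in flank O/E was 1 (*SNAI1*) with the expected value of the same chromosome and 6 (*ZEB1*, *CDH1*, *SNAI1*, *TWIST1*, *EPCAM*, *GRHL2*) in read pairs without correction. The share of all genes was 15.3% with the former and was not counted for the latter, so the 6 cannot be read against it. With flanks of 80 to 480 kb, 2 genes (*VIM*, *SNAI2*) in place of 1 were 2 times higher on the same side. The share of all genes, 7.64%, was counted with flanks of 80 kb to 1 Mb alone. Coverage of pairs at least 200 kb apart passed 1.5-fold for 4 genes (*VIM*, *CDH1*, *SNAI1*, *GRHL2*). For this count, and for the counts above that have no share beside them, the share of all genes was not counted under the alternative.

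Leaving out either SW480 replicate gave 4 to 5 genes above 0 in all lines, 3 to 4 with differing sign and 9 to 10 with a range above the replicate difference. *VIM* decided the first of these changes, being above 0 in SW480 without replicate 2. The counts near a minimum (2 to 2), past 1.5-fold in flank O/E (3 to 3) and in coverage (3 to 3), on the same side (1 to 1), above 0 in HCC1954 alone (2 to 2) and of line-specific contacts (0 to 0) did not move. Of the single values under all alternatives, 93 of 180 compartment values, 82 of 180 flank O/E values, 128 of 180 side ratios and 65 of 140 coverage values moved by at most the SD between the SW480 replicates over all genes. No compartment value beyond the 95th percentile of the replicate difference, and no 2-fold side ratio, changed sign. No paired analysis was possible because no line other than SW480 has more than 1 map. Read pairs limit *CDH2* most, with 468 to 846 in its flanks.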
